A study of Mus musculus with 9 samples.

Results

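The tektins and the radial spoke head and stalk genes of sperm and cilia were followed here through RNA sequencing of mouse male germ cells that lack the mitochondrial protease ClpP or its partner ClpX. The members were taken by name: 5 tektins (Tekt1, Tekt2, Tekt3, Tekt4 and Tekt5) and 5 radial spoke genes (Rsph1, Rsph3a, Rsph4a, Rsph6a and Rsph9), so 10 of the 54532 genes measured. Each group held 3 libraries titled spermatocytes and labelled PD 35. The controls carry the genotype label WT, and the other groups carry the labels ClpP knockout and ClpX knockout, here ClpP cKO and ClpX cKO. In both knockouts the gene was deleted by Stra8-Cre, which acts in germ cells from the spermatogonial stage onward. Whether the controls carry the Cre or floxed alleles is not given in the labels, nor are the method of cell isolation, a batch or the origin of the replicates. The p-values therefore measure only the spread between these libraries, which may be technical.

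The axoneme, the core of a sperm tail or motile cilium, is a ring of doublet microtubules around a central pair. Tektins are filament-forming proteins that line the inside of the doublets, and Tekt1, Tekt2, Tekt3 and Tekt4 as well as the sperm-rich Tekt5 are known from sperm flagella. Radial spokes project from the doublets toward the central pair and pass signals that set the beat of the dynein motors. Their heads hold Rsph1, Rsph9 and either Rsph4a, the form of motile cilia, or its testis-enriched relative Rsph6a, while Rsph3 proteins build the stalk. Male germ cells switch on axonemal genes during meiosis and in spermatids, when the tail is assembled.

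The libraries held between 14334436 and 17021685 gene reads. Clpp was measured at 9.06 ± 0.52 FPKM (SD, n = 3 in this and all later means) in controls and 5.002 ± 1.24 FPKM in ClpP cKO, and Clpx at 56.5 ± 2.41 FPKM in controls and 13.4 ± 2.14 FPKM in ClpX cKO, so each targeted gene was lower in its own knockout. Clpx was also lower in ClpP cKO, at 37.5 ± 2.42 FPKM (-0.58, limma, adjusted p = 0.00875), and Clpp was higher in ClpX cKO, at 13.1 ± 0.85 FPKM (0.49, limma, adjusted p = 0.014). FPKM counts reads per base of gene length and per library size, so levels can be compared between genes. The library size these values imply was below the libraries' own gene reads in controls and above them in both knockouts. The libraries titled spermatocytes also held RNA of other cells. In the controls, 8 genes of elongating spermatids (Prm1, Prm2, Tnp1 and others) summed to 7477 to 16744 FPKM and 8 Sertoli cell genes to 340.5 to 354.6 FPKM. Beside these, 7 early prophase genes summed to 298 to 349 FPKM and 7 pachytene and diplotene genes to 2619 to 2763 FPKM. Single genes weighed heavily, with Clu at 257 ± 4.40 FPKM in the Sertoli sum and Ldhc at 1979 ± 63.0 FPKM in the pachytene and diplotene sum. The sums therefore do not compare amounts of cells. Some libraries differed from the rest of their groups. Control 3 had the elongating spermatid sum of 7477 FPKM, and ClpX cKO 1 had the highest sum of round spermatid genes in its group, 294 FPKM against 146 and 181 FPKM. ClpP cKO 1 likewise had the highest such sum of its group, 320 FPKM against 231 and 251 FPKM.

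The promoters of the tektins are shown because binding sites of RFX factors, which switch on genes of cilia, are often found at such genes. RefSeq windows of 250 bases before to 50 bases after a RefSeq start (GRCm38.p6) were used for 8 of the 10 members, without Rsph1 and Rsph4a, in 11 windows. Any window under a member's name on a chromosome that holds no member was left out of these, but not out of the share over all windows. A RefSeq start can differ from the end of the gene in the deposited positions. The half-site GTTGCC, searched on both strands, was present in windows of 3 of these 8 members, Tekt1, Tekt2 and Tekt4, and in 12.5% of all 32851 windows, or 14.1% of the 27025 genes. Printed 5′ to 3′ on the strand of the gene, with each half-site match in capitals, are the windows of Tekt1 (chr11:72361833-72362132, minus strand), Tekt2 (chr4:126325639-126325938, minus strand) and Tekt4 (chr17:25471340-25471639, plus strand). That of Tekt5 (chr16:10395406-10395705, minus strand), the member with the largest fall in ClpX cKO, is shown beside them and held no match.
Tekt1: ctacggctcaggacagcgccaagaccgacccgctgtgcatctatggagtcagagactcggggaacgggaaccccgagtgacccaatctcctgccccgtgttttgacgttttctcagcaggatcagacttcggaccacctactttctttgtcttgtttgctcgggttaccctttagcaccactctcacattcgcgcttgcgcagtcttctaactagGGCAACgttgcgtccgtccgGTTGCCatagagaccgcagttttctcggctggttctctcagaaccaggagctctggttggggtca
Tekt2: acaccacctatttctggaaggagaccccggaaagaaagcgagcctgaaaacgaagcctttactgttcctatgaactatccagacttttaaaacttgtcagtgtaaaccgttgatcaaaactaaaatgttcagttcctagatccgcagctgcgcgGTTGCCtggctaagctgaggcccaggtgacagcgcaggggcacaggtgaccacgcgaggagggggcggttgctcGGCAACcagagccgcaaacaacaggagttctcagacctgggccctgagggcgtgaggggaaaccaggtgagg
Tekt4: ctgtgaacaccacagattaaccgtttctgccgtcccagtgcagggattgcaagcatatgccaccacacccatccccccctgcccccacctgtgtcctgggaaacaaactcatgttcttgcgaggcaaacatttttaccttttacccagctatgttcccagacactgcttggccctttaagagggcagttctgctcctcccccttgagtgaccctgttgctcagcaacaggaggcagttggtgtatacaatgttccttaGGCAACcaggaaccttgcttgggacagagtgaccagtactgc
Tekt5: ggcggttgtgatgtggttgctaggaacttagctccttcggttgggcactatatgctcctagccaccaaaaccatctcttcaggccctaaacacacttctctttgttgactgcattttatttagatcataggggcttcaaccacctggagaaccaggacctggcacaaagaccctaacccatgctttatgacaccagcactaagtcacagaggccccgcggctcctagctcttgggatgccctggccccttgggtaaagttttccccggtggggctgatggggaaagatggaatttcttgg
In the windows printed, the matches of Tekt1 began 35 and 15 bases before the RefSeq start and those of Tekt2 96 and 22 bases before it. In both genes 1 stood on each strand. A second window of Tekt2 held the same matches 138 and 64 bases before its start. A further window of Tekt2 and a second window of Tekt1 held no match. The Tekt1 matches stood at 72361912 to 72361917 and 72361892 to 72361897, inside the gene as placed below (chr11:72344722-72362442). The match of Tekt4 lay 8 bases after the RefSeq start. The cAMP response element TGACGTCA, which reads the same on both strands, was in none of the 8 members' windows and in 1.79% of all windows. A match is a description of the letters and was not tested for binding.

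In the controls, Rsph1 was by far the highest member at 674 ± 41.5 FPKM, above 99.8% of the 12827 protein-coding genes tested. Next came Tekt1 at 189 ± 2.33 FPKM and Tekt4 at 183 ± 26.8 FPKM, whose library values overlapped. Tekt2 followed at 121 ± 5.45 FPKM. Rsph6a at 110.3 ± 3.70 FPKM and Tekt3 at 107 ± 5.22 FPKM overlapped as well. Tekt5 stood at 84.1 ± 13.1 FPKM, Rsph3a at 58.5 ± 1.22 FPKM and Rsph9 at 51.0 ± 2.16 FPKM. Rsph4a was last at 0.247 ± 0.018 FPKM. The head gene of motile cilia was thus nearly unread in these libraries, while its relative Rsph6a was read at a level above 96.4% of protein-coding genes tested. The same order held in ClpP cKO by mean level, but there Tekt4 and Tekt2, Tekt2 and Rsph6a, Rsph6a and Tekt3, and Tekt5 and Rsph3a overlapped. In ClpX cKO, Tekt5 fell from seventh to eighth place behind Rsph3a at 31.5 ± 8.37 against 41.0 ± 3.78 FPKM, and Tekt2 fell behind Rsph6a, with overlapping values in both cases.

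**Figure D1:**
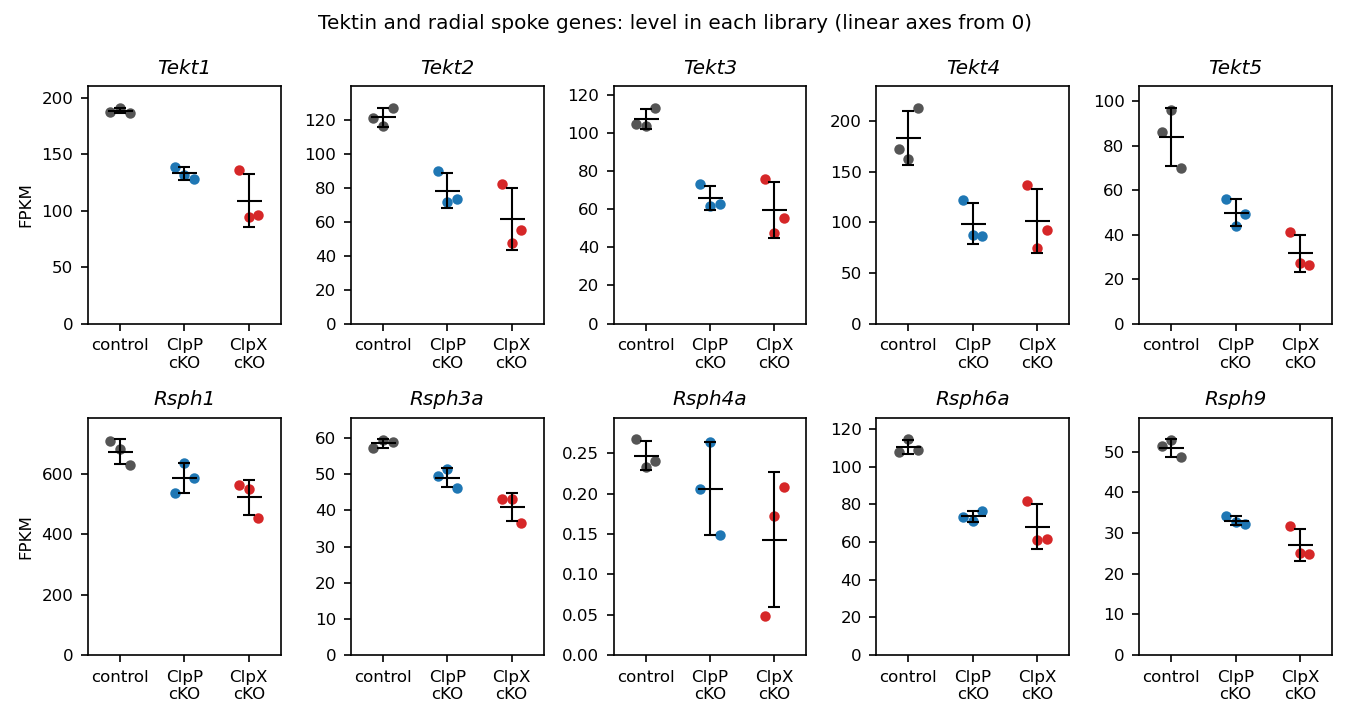
FPKM of each of the 10 members in each library (points, by group) with the group mean and SD (bar and whiskers), on linear axes from 0 that differ between genes. All 6 knockout points of the 5 tektins, Rsph3a, Rsph6a and Rsph9 lie below the control points, whereas for Rsph1 the second ClpP cKO library (635 FPKM) lies above the third control (628 FPKM).

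All 5 tektins were lower in both knockouts. Tekt1 was read at 188, 191 and 187 FPKM in controls 1 to 3, at 139, 132 and 128 FPKM in the ClpP cKO libraries and at 136, 94.9 and 95.9 FPKM in the ClpX cKO libraries. The controls lay within a few FPKM of each other, and the first ClpX cKO library lay among the ClpP cKO values. The fitted log2 change of FPKM + 1 was -0.50 ± 0.13 (SE) in ClpP cKO (limma, adjusted p = 0.0175) and -0.81 ± 0.13 in ClpX cKO (limma, adjusted p = 0.00097). Tekt1 lies at chr11:72344722-72362442 on the minus strand and its longest coding transcript has 8 exons.

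Tekt2 (chr4:126322121-126325688, minus strand, 11 exons) was read at 121, 116 and 127 FPKM in controls, 89.96, 71.3 and 73.2 FPKM in ClpP cKO and 82.3, 47.6 and 54.9 FPKM in ClpX cKO. Both knockout groups lay below the controls, and replicate 1 was the highest of each knockout. A transcript on the other strand of Tekt2, Gm12945, was read at 0 to 0.536 FPKM. The log2 change of Tekt2 was -0.63 ± 0.18 in ClpP cKO (limma, adjusted p = 0.0245) and -1.004 ± 0.18 in ClpX cKO (limma, adjusted p = 0.00169). Tekt3, a tektin also found at the acrosome, was read at 105, 104 and 113 FPKM in controls, 73.2, 61.8 and 62.7 FPKM in ClpP cKO and 75.8, 47.4 and 55.5 FPKM in ClpX cKO. The groups again did not overlap with the controls, and replicate 1 of both knockouts was nearest to them. The log2 change of Tekt3 (chr11:63061654-63094964, plus strand, 8 exons) was -0.70 ± 0.15 in ClpP cKO (limma, adjusted p = 0.0117) and -0.86 ± 0.15 in ClpX cKO (limma, adjusted p = 0.00155).

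Tekt4 was read at 173, 163 and 213 FPKM in controls, at 122, 87.6 and 86.4 FPKM in ClpP cKO and at 136, 74.6 and 92.0 FPKM in ClpX cKO. Control 3 was the highest library of all, and the first library of both knockouts lay well above the other two. The log2 change was -0.89 ± 0.23 in ClpP cKO (limma, adjusted p = 0.0165), the largest of the members in that knockout, and -0.88 ± 0.23 in ClpX cKO (limma, adjusted p = 0.0083). The table places Tekt4 at chr17:25471590-25476594 on the plus strand, and its longest coding transcript has 6 exons.

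Tekt5 had the largest fall in ClpX cKO. Its values were 86.2, 96.0 and 70.1 FPKM in controls, 56.0, 44.1 and 49.5 FPKM in ClpP cKO and 41.2, 27.3 and 26.2 FPKM in ClpX cKO. The 3 groups did not overlap, and control 3, the highest control for Tekt4, was the lowest for Tekt5. The log2 change of Tekt5 (chr16:10357948-10395490, minus strand, 7 exons) was -0.74 ± 0.18 in ClpP cKO (limma, adjusted p = 0.0159) and -1.41 ± 0.18 in ClpX cKO (limma, adjusted p = 5.0e-04). In ClpX cKO the mean was 0.375 of the control mean.

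Summed over the 5 tektins, the level was 670.0 to 711 FPKM in controls, 397 to 480.4 FPKM in ClpP cKO and 292 to 472 FPKM in ClpX cKO. Tekt5 made up 12.3 ± 2.27% of that sum in controls (9.87 to 14.3%), 11.7 ± 0.63% in ClpP cKO (11.1 to 12.4%) and 8.71 ± 0.64% in ClpX cKO (8.07 to 9.34%). The ClpX cKO shares lay below those of both other groups. Tekt1 made up 27.6 ± 1.16%, 31.4 ± 2.21% and 30.3 ± 1.94%, with higher shares in every knockout library than in any control. These shares were not tested, and an exact permutation test of 3 against 3 libraries cannot go below 0.10. The coding sequences of the 5 tektins were 50.5 to 58.9% identical in pairwise alignments, lowest for Tekt1 with Tekt2 and highest for Tekt3 with Tekt5, and their transcripts shared no run of 50 bases with any other gene.

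Of the head genes of the radial spokes, Rsph9 and Rsph6a fell in both knockouts, and Rsph1 passed the test in ClpX cKO but not in ClpP cKO. Rsph1 (chr17:31255019-31277356, minus strand, 9 exons) was read at 710, 684 and 628 FPKM in controls, 538, 635 and 586 FPKM in ClpP cKO and 562, 549 and 456 FPKM in ClpX cKO. ClpP cKO overlapped with the controls, and ClpX cKO did not. The log2 change was -0.20 ± 0.11 in ClpP cKO (limma, adjusted p = 0.169) and -0.37 ± 0.11 in ClpX cKO (limma, adjusted p = 0.0182). The direction of Rsph1 turned under quantile normalization, to 0.17 in ClpP cKO and 0.24 in ClpX cKO, where it was called higher (limma, adjusted p = 0.0299). With FPKM rescaled to the gene reads of each library, Rsph1 was at -0.02 in ClpP cKO and -0.15 in ClpX cKO, with neither called. Without control 1, control 2 or ClpX cKO 3 the ClpX cKO call was lost, with limma adjusted p-values of 0.0615, 0.0533 and 0.0568, and without a filter on low values it was 0.0881. The recovered reads of Rsph1 numbered 9971 to 12164 in controls, 10817 to 11502 in ClpP cKO and 9048 to 11186 in ClpX cKO, and these ranges overlapped. These reads are not divided by library size, and the lowest control value came from control 3, the library with the fewest gene reads (14334436).

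Rsph9 was read at 51.4, 52.9 and 48.6 FPKM in controls, 34.3, 32.8 and 32.2 FPKM in ClpP cKO and 31.6, 25.03 and 24.8 FPKM in ClpX cKO. The 3 groups were fully separate. Its log2 change was -0.61 ± 0.10 in ClpP cKO (limma, adjusted p = 0.00857) and -0.89 ± 0.10 in ClpX cKO (limma, adjusted p = 4.5e-04), the smallest adjusted p of the members in both. Rsph9 (chr17:46122035-46144216, minus strand, 5 exons) shares 6876 bases with Mrps18a on the other strand, which was read at 7.51 to 8.88 FPKM, and whether reads were counted by strand is not stated. Rsph6a (chr7:19054690-19074447, plus strand, 6 exons) was read at 108, 115 and 109 FPKM in controls, 73.1, 71.1 and 76.7 FPKM in ClpP cKO and 81.8, 61.1 and 61.4 FPKM in ClpX cKO. Both knockouts lay below the controls, and ClpX cKO 1 lay above all ClpP cKO libraries. Its log2 change was -0.58 ± 0.11 in ClpP cKO (limma, adjusted p = 0.00914) and -0.70 ± 0.11 in ClpX cKO (limma, adjusted p = 9.0e-04).

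Rsph4a, whose coding sequence was 62.7% identical to that of Rsph6a, was read at 0.268, 0.233 and 0.241 FPKM in controls, 0.206, 0.264 and 0.148 FPKM in ClpP cKO and 0.049, 0.172 and 0.209 FPKM in ClpX cKO. These were 12 to 14 reads a library in controls, 9 to 15 in ClpP cKO and 3 to 13 in ClpX cKO, with the ClpX cKO values all below the controls in FPKM but not in reads. It did not reach a mean of 1 FPKM and was not tested, so counts below are of the 9 other members. Rsph4a lies at chr10:33905111-33916021 on the plus strand.

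The stalk gene Rsph3a has a near-identical copy, Rsph3b, on the same chromosome (Rsph3a at chr17:7945614-7979824, plus strand, and Rsph3b at chr17:6904413-6948682, minus strand, 8 exons each). Of the runs of 50 bases in Rsph3a transcripts, 1662 of 3057 (54.4%) also stood in Rsph3b. The coding sequences were 99.2% identical over 1548 aligned bases, with 13 mismatches. The stretch of 90 bases with the most of these, coding bases 208 to 297 of Rsph3a and 262 to 351 of Rsph3b, is printed because reads over such bases can tell the copies apart, with its 5 mismatches in capitals.
Rsph3a: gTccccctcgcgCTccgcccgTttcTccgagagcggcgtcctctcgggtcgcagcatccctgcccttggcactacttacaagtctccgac
Rsph3b: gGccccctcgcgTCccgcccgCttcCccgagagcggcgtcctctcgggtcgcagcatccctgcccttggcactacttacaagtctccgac
Rsph3a was read at 57.2, 59.6 and 58.8 FPKM in controls, 49.6, 51.3 and 46.1 FPKM in ClpP cKO and 43.2, 43.1 and 36.6 FPKM in ClpX cKO. The 3 groups did not overlap. Its log2 change was -0.25 ± 0.08 in ClpP cKO (limma, adjusted p = 0.0326) and -0.51 ± 0.08 in ClpX cKO (limma, adjusted p = 8.6e-04), and quantile normalization turned the first to 0.06. The ClpP cKO call was also lost without any 1 of the controls or ClpP cKO libraries, with limma adjusted p-values of 0.0598 to 0.112. Rsph3b varied far more, at 33.1, 37.6 and 16.9 FPKM in controls, 3.59, 29.1 and 29.4 FPKM in ClpP cKO and 23.3, 14.5 and 12.6 FPKM in ClpX cKO. ClpP cKO 1 was by far the lowest library for Rsph3b, and lay between the other ClpP cKO libraries for Rsph3a. How the authors' counting divided shared reads is not stated, so the values of both genes are uncertain. The antisense gene E430024P14Rik at the start of Rsph3a was read at 0.039 to 0.129 FPKM. The 2 together summed to 75.7 to 97.2 FPKM in controls, 53.2 to 80.5 FPKM in ClpP cKO and 49.2 to 66.5 FPKM in ClpX cKO, where ClpP cKO overlapped with the controls.

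**Figure D2:**
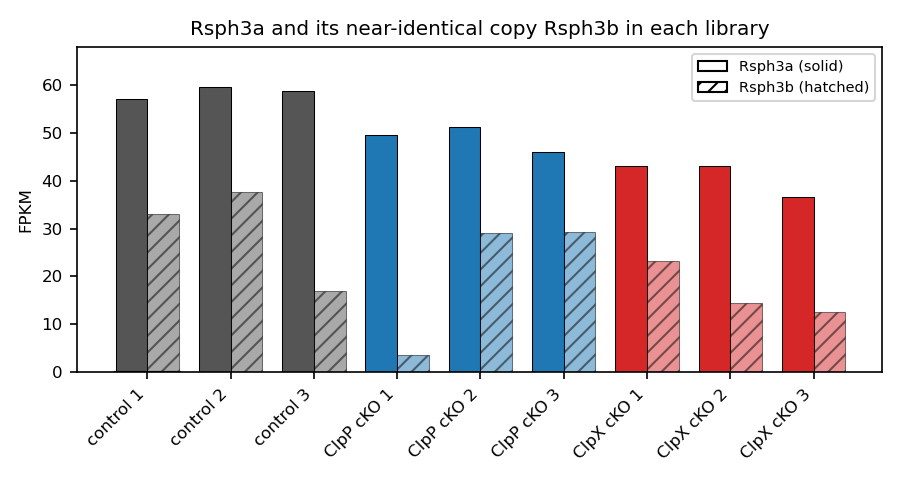
FPKM of Rsph3a (solid bars) and Rsph3b (hatched bars) in each of the 9 libraries, on a linear axis from 0 and coloured by group. Rsph3a steps down from group to group, 57.2 to 59.6, 46.1 to 51.3 and 36.6 to 43.2 FPKM, while Rsph3b runs from 3.59 to 37.6 FPKM with no such order.

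Of the 9 tested members, 8 were lower in ClpP cKO and 9 in ClpX cKO, and none was higher. Of all 17266 genes tested, 44.7% were called in ClpP cKO, 24% lower and 20.7% higher. In ClpX cKO 65.6% were called, 33.5% lower and 32.1% higher. The median log2 change of the members was -0.61 in ClpP cKO and -0.86 in ClpX cKO, beside 0.01 and -0.00077 over all tested genes and 0.08 and 0.11 over the protein-coding ones. By family, the tektins had medians of -0.70 and -0.88 with 5 of 5 lower in both knockouts. The 4 tested radial spoke members had medians of -0.41 and -0.60 with 3 and 4 lower. All 3 knockout libraries lay below all 3 controls for 8 of the 9 in ClpP cKO and for 9 of 9 in ClpX cKO, which held for 30.5% and 35% of all tested genes. Both comparisons use the same controls.

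The size of these changes depended on how the libraries were scaled. Scaling by each library's own total of gene reads moved the median of all tested genes to 0.16 in ClpP cKO and 0.18 in ClpX cKO and left 5 and 8 members lower. Without this shift, the members' medians were -0.59 and -0.82, beside -0.62 and -0.86 with the deposited values treated likewise. Tekt1, Tekt2 and Rsph3a lost their call in ClpP cKO and Rsph1 in ClpX cKO. Without a filter on low values Tekt2 and Rsph3a also lost it in ClpP cKO, with limma adjusted p-values of 0.0608 and 0.0659. With quantile normalization the members' medians were -0.24 and -0.31, or -0.31 and -0.40 after taking off the median of all tested genes. Only Rsph9 was still lower in ClpP cKO (-0.32), and Tekt2, Tekt3, Tekt5 and Rsph9 in ClpX cKO. The share of all tested genes called in ClpP cKO and ClpX cKO was 38.7% and 63.6% with quantile normalization. With own totals it was 48.6% and 67.4%. Of all calls, 46.3% were of higher genes in ClpP cKO and 49.0% in ClpX cKO, against 71.4% and 63.3% with own totals and 58.5% and 57.3% with quantile normalization. In ClpP cKO the count of 8 also rested on single libraries, falling to 4 when control 1, control 2 or ClpP cKO 3 was left out and to 3 when ClpP cKO 2 was. Calls over all tested genes fell as well, from 44.7% to 24.3, 28.3, 23.4 and 20.9% in these fits. Tekt2 lost its call without any 1 of the controls or without ClpP cKO 2 or 3 (limma adjusted p-values of 0.0539 to 0.081). Tekt1 lost it without control 1, control 2, ClpP cKO 2 or ClpP cKO 3 (0.0503 to 0.0587), Tekt4 without ClpP cKO 2 or 3 (0.0593 and 0.0576) and Tekt5 without control 1, control 2 or ClpP cKO 2 (0.0504 to 0.0584). Tekt3, Rsph6a and Rsph9 were called in ClpP cKO with any 1 library left out.

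**Figure D3:**
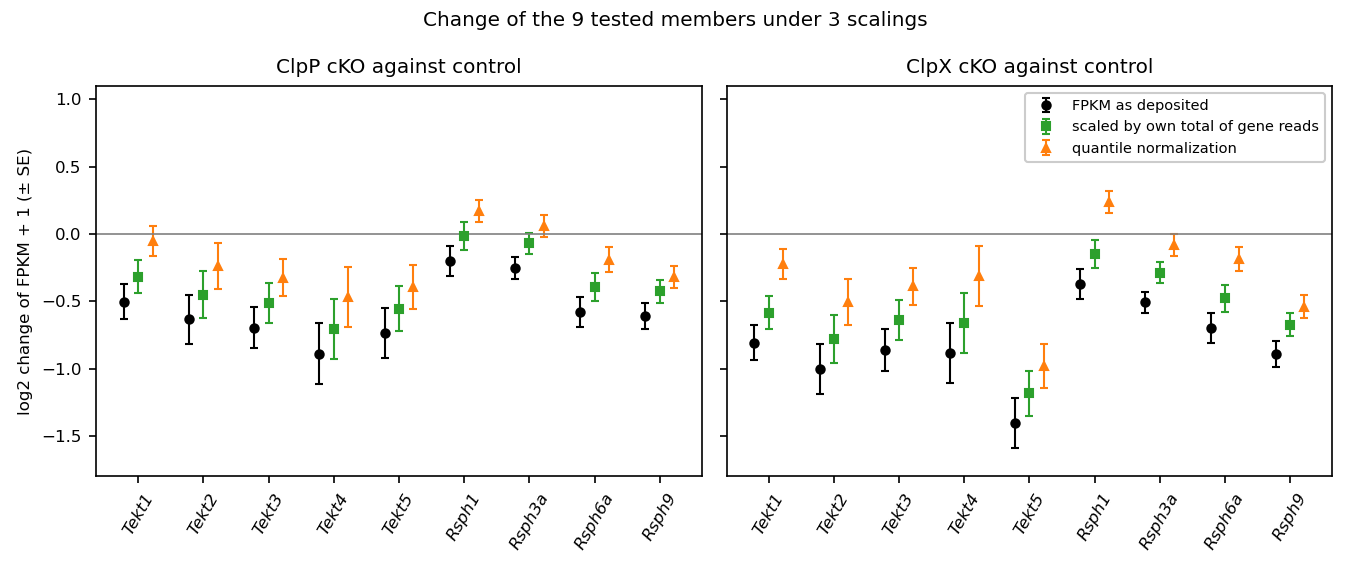
Fitted log2 change of FPKM + 1 with its SE for the 9 tested members in ClpP cKO (left) and ClpX cKO (right) against control, under the deposited scaling (circles), each library's own total of gene reads (squares) and quantile normalization (triangles). Under the 3 scalings Tekt4 is lowest in ClpP cKO (-0.89, -0.71 and -0.47) and Tekt5 in ClpX cKO (-1.41, -1.19 and -0.98), and Rsph1 crosses 0 under quantile normalization.

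In single libraries, all 9 tested members lay below the control mean in each of the 6 knockout libraries. The median difference on the log2 scale was -0.54, -0.63 and -0.65 in ClpP cKO 1 to 3 and -0.47, -0.997 and -0.97 in ClpX cKO 1 to 3, while the controls lay at -0.01, 0.02 and -0.01. By this median ClpX cKO 1 was nearer to the controls than every ClpP cKO library. By member this held for Tekt3, Tekt4 and Rsph6a, whereas its Tekt5 (-1.001), Rsph3a (-0.43) and Rsph9 (-0.67) were further from the controls than in any ClpP cKO library.

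**Figure D4:**
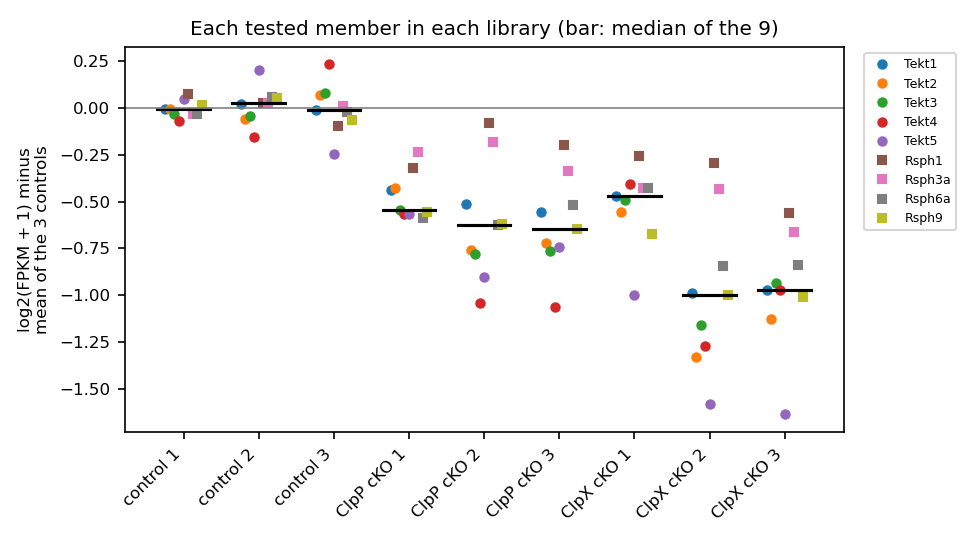
Difference of log2(FPKM + 1) from the mean of the 3 controls for each tested member (circles for tektins, squares for radial spoke genes) in each library, with the median of the 9 as a bar. ClpX cKO 2 and 3 have medians of -0.997 and -0.97, and ClpX cKO 1 has -0.47, close to the ClpP cKO libraries.

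Between the knockouts, 0 of 9 members were called, in a comparison that called 0.104% of all tested genes (18), 0.0579% lower and 0.0463% higher. At an unadjusted p under 0.05 there were 4 members, Tekt1, Tekt5, Rsph3a and Rsph9, all lower in ClpX cKO, against 4801 of the 17266 genes tested, and voom on the recovered reads also called 0. The difference of Tekt5, ClpX cKO minus ClpP cKO, was -0.67 with a 95% interval of -1.09 to -0.25 (limma, adjusted p = 0.0923), and its ClpX cKO values all lay below its ClpP cKO values, as they did for 14.9% of all tested genes. For Rsph9 it was -0.28 (-0.50 to -0.07) and for Rsph3a -0.26 (-0.44 to -0.08), also with all 3 values lower. Tekt4 had the smallest difference, 0.01 (-0.51 to 0.52). The call depended on ClpX cKO 1. Without it, 7 members were called lower in ClpX cKO, all but Tekt4 and Rsph1, and the members' median went from -0.26 to -0.35. Tekt5 was then at -0.87 (limma, adjusted p = 0.00944). In all, 4758 genes were then called, 27.6% of those tested, and 43.3% of these calls were higher in ClpX cKO. Leaving out control 3 as well gave the same 7, beside 29.8% of all tested genes. The counts of 8 and 9 members against control were the same without these 2 libraries.

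Most other radial spoke genes were lower as well. Of 16 such genes, taken by name and all tested, 14 were lower in ClpP cKO and 15 in ClpX cKO, none was higher, and the medians were -0.57 and -0.83. Ropn1, which binds anchor proteins of protein kinase A, was at 175 ± 18.9 FPKM in controls. It was at 87.3 ± 13.6 FPKM in ClpP cKO (-1.001, limma, adjusted p = 0.0114) and 53.2 ± 18.5 FPKM in ClpX cKO (-1.75, limma, adjusted p = 4.7e-04). Rsph10b went from 23.3 ± 0.83 FPKM to 16.1 ± 0.72 and 11.4 ± 1.85 FPKM. Cfap61, a spoke base protein, fell by 0.56 on the log2 scale in ClpP cKO, and Ak8, an adenylate kinase, by 1.01 in ClpX cKO. Rsph3b was not called in either knockout, at -0.83 ± 0.69 and -0.73 ± 0.69, nor was Rsph14 in ClpP cKO at -0.35 ± 0.19. In ClpP cKO the count of 14 was 5 with quantile normalization, 7 with control 1 left out and 5 when ClpP cKO 2 or 3 was left out. Of all tested genes, 38.7%, 24.3%, 20.9% and 23.4% were called in these fits.

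The tektins share the inside of the doublet with microtubule inner proteins. Of 18 genes of these proteins, taken by name and all tested, 17 were lower in each knockout, and the medians were -0.58 and -0.87. Cfap52 went from 51.6 ± 1.57 FPKM to 36.7 ± 1.35 and 31.9 ± 3.92 FPKM, with log2 changes of -0.48 (limma, adjusted p = 0.00857) and -0.68 (limma, adjusted p = 4.7e-04). Spaca9 had the largest fall of the list in ClpX cKO, from 254 ± 51.3 to 62.0 ± 21.4 FPKM (-2.04, limma, adjusted p = 4.5e-04). The exception was Cfap20, a protein of the inner junction of the doublet. It was read at 21.7, 21.3 and 20.9 FPKM in controls, 20.6, 21.4 and 22.1 FPKM in ClpP cKO and 20.2, 20.3 and 20.8 FPKM in ClpX cKO. Its values overlapped in ClpP cKO, with log2 changes of 0.00 ± 0.06 and -0.06 ± 0.06 and limma adjusted p-values of 0.966 and 0.386. In ClpP cKO the count of 17 was 6 with quantile normalization, 10 with own totals, 11 with control 1 left out, and 10 and 9 when ClpP cKO 2 and 3 were left out in turn. These fits called 38.7%, 48.6%, 24.3%, 20.9% and 23.4% of all tested genes.

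**Figure D5:**
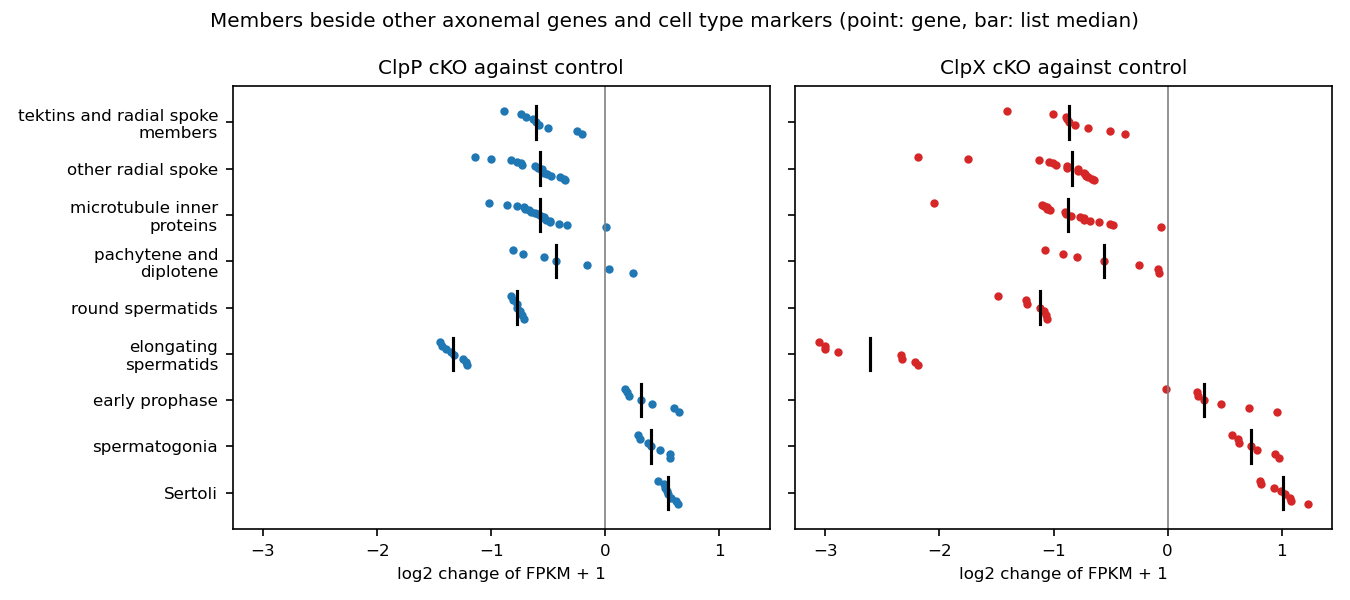
Log2 change of FPKM + 1 of single genes (points) and the list median (bar) for the 9 tested members, the 2 lists of other axonemal genes and 6 lists of cell type markers, in ClpP cKO (left) and ClpX cKO (right) against control. The members' medians (-0.61 and -0.86) lie between those of the pachytene and diplotene genes (-0.43 and -0.56) and of the round spermatid genes (-0.77 and -1.12), and the Sertoli genes lie on the other side of 0 (0.55 and 1.01).

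Markers of cell types changed as well, those of spermatids downward like the members, and those of Sertoli cells and spermatogonia upward. Of 7 round spermatid genes, 6 were lower in ClpP cKO and 7 in ClpX cKO, and their sum went from 418 to 476 FPKM in controls to 231 to 320.1 FPKM and 146 to 294 FPKM. All 8 elongating spermatid genes were lower in both, with sums of 7477 to 16744, 4315 to 5179 and 1517 to 2320 FPKM. Of 7 pachytene and diplotene genes, 4 and 5 were lower, with sums of 2619 to 2763, 1996 to 2052 and 1406 to 1895 FPKM. Most of these sums was Ldhc, at 1979, 1463 and 1151 FPKM by group mean. Piwil1 and Mybl1 were called in neither knockout. Mean Piwil1 was 164, 195 and 159 FPKM, with all ClpP cKO values above the controls, and mean Mybl1 was 19.4, 19.9 and 18.3 FPKM. All 8 Sertoli genes were higher, with sums of 340.5 to 354.6, 494 to 533 and 624 to 839 FPKM, as were 5 and 7 of 7 spermatogonial genes, with sums of 64.9 to 73.5, 86.2 to 99.6 and 103 to 129 FPKM. Of 7 early prophase genes, 4 were higher in each, with sums of 298 to 349, 370 to 412 and 386 to 402 FPKM. Of the immune genes tested, 2 of 4 and 4 of 4 were higher, with sums over 5 genes of 17.2 to 22.3, 25.5 to 34.1 and 30.7 to 43.6 FPKM. The 5 Leydig cell genes had median changes of 0.60 and 0.65, with 0 and 1 called higher. Mitochondrial transcripts took 0.83 to 0.96% of reads in controls, 1.48 to 1.63% in ClpP cKO and 2.23 to 2.94% in ClpX cKO. No gene of these lists was at 0 in all libraries of a group. The part of these shifts in the members' changes was not tested, and fewer cells of a type and less RNA per cell cannot be told apart in such libraries. Multiciliated cells also hold tektins and radial spokes. Of 6 of their markers, Mcidas, Gmnc, Cdhr3 and Tmem212 had group means under 1 FPKM in every group, Ccno had 1.07 to 1.38 FPKM, and Deup1, a gene of centriole amplification, went from 79.1 FPKM to 41.9 and 29.7 FPKM.

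The genes with the pattern most like each member over the 9 libraries were sought among 8182 protein-coding genes with a mean of at least 5 FPKM, by the root mean square difference of centred log2 values. The measure is a description over libraries that share their groups. Nearest to Tekt1 was Cct6b, a testis form of a chaperonin subunit, at a difference of 0.027, followed by the dynein docking gene Armc4 at 0.033. Rsph9 lay nearest to Nudt4 (0.028) and Bspry (0.032), and Rsph6a to Txnrd3, a testis-rich thioredoxin reductase (0.039), and Angel1 (0.041). For Tekt3 the nearest were Cdkn3 (0.041) and Rasef (0.049), for Tekt2 Ccdc175 (0.049) and Ccdc183 (0.054), and for Rsph3a Pde8a (0.043) and Ift140 (0.045), a gene of transport within cilia. Rsph1 lay nearest to 1700029P11Rik (0.046) and Ssh2 (0.050), Tekt4 to Stambpl1 (0.050) and Atp10a (0.074), and Tekt5 to Vwa3b (0.053) and Dpysl3 (0.065). No member was among the nearest 2 of another. Between 21 genes (Tekt4) and 631 genes (Tekt5) lay nearer to a member than the closest other member did. By position, 4 of the 10 members lie on chromosome 17, which holds 5.02% of the protein-coding genes tested.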

How the data were processed

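Gene levels were read from 1 table of 54532 genes in 9 libraries, deposited by the authors as FPKM per the file headers, with a gene length in bases, a column of another unit. The build was GRCm38 (mm10), per the submitters' processing notes. Per the labels' protocols, RNA was column-purified, 1.3 ug of total RNA went into a library, and a SMARTER mRNA-Seq kit was used. The aligner, counter and strand setting are not given in the sources used here. FPKM times gene length gave whole reads for 100% of values (tolerance 0.01 of a read). The per-million denominator these imply was 0.919 ± 0.028 times the library's own gene reads for the controls, 1.05 ± 0.0037 for the ClpP cKO and 1.07 ± 0.017 for the ClpX cKO libraries (SD, n = 3), a factor whose origin is not stated.

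Genes with a mean of at least 1 FPKM (17266, 12827 of them protein-coding) were fitted as log2(FPKM + 1) by limma (3.58.1, under R 4.3.3). The model held the 9 libraries together, with a trend in the prior variance and 6 residual degrees of freedom. Called means a Benjamini-Hochberg adjusted p under 0.05 over all tested genes, two-sided. Folds on this scale understate changes of low genes. The script was tested on simulated data. Named were all members, in each axonemal list and knockout up to 3 called genes with the smallest adjusted p and up to 2 uncalled ones of highest mean, the 2 genes most like each member, and Clpp and Clpx. Some genes this rule names are not reported here. The members and lists were chosen with earlier results of these data known. Alternatives were a pseudocount of 0.1, no filter or a mean of 5 FPKM, quantile, own-total and median-of-ratios scaling, voom on the recovered reads, fits on 6 libraries only, a block for the replicate number, a robust prior, and leaving out each library or control 3 and ClpX cKO 1 together. Promoter sequences are from RefSeq, transcripts from GENCODE M21, on which 8 of 10 members have the table's position. Alignments used Biopython 1.88, and other steps Python 3.11.15, pandas 2.3.3, numpy 2.4.6, scipy 1.17.1 and matplotlib 3.10.9. Protein sequences were not used here.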

Additional observations from a re-analysis of the deposited data

How the results depend on the processing

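Over the alternatives, single-member log2 changes kept direction and side of the threshold in 147 of 180 cases in ClpP cKO, 170 of 180 in ClpX cKO and 160 of 180 between the knockouts. Signs turned under quantile normalization for Rsph1 (0.17 in ClpP cKO, 0.24 in ClpX cKO, 0.0669 between knockouts), Rsph3a (0.0574 in ClpP cKO) and Rsph6a (0.0054 between knockouts). Between knockouts, Tekt4 ran from -0.231 to 0.2 when 1 library was left out, at -0.0687 without ClpP cKO 2, -0.0792 without ClpP cKO 3 and -0.231 without ClpX cKO 1, alone or with control 3. Quantile normalization left 1 member, 5 other radial spoke genes and 6 inner protein genes called in ClpP cKO and 5 members in ClpX cKO, 4 lower and Rsph1 higher. Own totals left 5 members and 10 inner protein genes in ClpP cKO. Of all tested genes, quantile normalization called 38.7% in ClpP cKO and 63.6% in ClpX cKO, and own totals 48.6% and 67.4%. Leaving out 1 library gave 3 to 8 members, 5 to 14 other radial spoke genes, 9 to 17 inner protein genes and 3617 to 8729 genes in ClpP cKO, and 8 to 9 members, 14 to 15, 17 and 9825 to 11779 in ClpX cKO. Between knockouts it gave 0 to 7 members, 0 to 13, 0 to 15 and 0 to 4758 genes (445 without control 3, 4758 without ClpX cKO 1). Control 3 and ClpX cKO 1 left out together gave 7 members, 14, 15 and 5149 genes. The 18 genes between knockouts were 29 with quantile normalization, 40 with voom and 89 on 6 libraries. A mean of at least 5 FPKM gave 6871 genes in ClpX cKO, where fewer genes were tested. Other causes were not tested. The replicate block gave 1 gene between knockouts (7845 and 11291 against control) and 8, 9 and 0 members. Same-numbered libraries correlated by -0.07 to 0.23 and differently numbered ones by -0.24 to 0.11. The numbers were not taken as pairs because the labels state none. Whether libraries of the same number were handled together was not tested. Depth limits Rsph4a, at 3 to 15 reads.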
